A study of Mus musculus with 4 samples.

Results

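Caveolae are small flask-shaped pits of the plasma membrane that buffer membrane tension and gather signalling proteins. Caveolins form the membrane-embedded part of the coat and cavins the outer peripheral layer, and the pits are plentiful in adipocytes, endothelium and muscle. Cav1 and Cav2 are the caveolins of most non-muscle cells, whereas Cav3 is the caveolin of striated muscle. Of the cavins, Ptrf (cavin 1) is needed for caveolae to form, Sdpr (cavin 2) and Prkcdbp (cavin 3) join it, and Murc (cavin 4) is the muscle form. Ehd2 is an ATPase that holds caveolae at the cell surface, and Dysf (dysferlin) is a calcium-binding membrane protein that serves repair of the muscle cell membrane and whose loss causes muscular dystrophy.

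The members were the 9 genes Cav1, Cav2, Cav3, Ptrf, Sdpr, Prkcdbp, Murc, Ehd2 and Dysf, chosen by name from the 21878 genes with mRNA values. They are listed with 41 of the 75959 mRNA transcripts, and the transcripts of each gene were summed. The cells were C3H10T1/2, a mouse mesenchymal stem cell line. The untreated group has 2 samples (replicates 1 and 2), for which no culture time is given. The 5-AZA group has 2 samples (replicates 101 and 102) that were given 20 μM 5-AZA (5-azacytidine, a cytidine analogue that lowers DNA methylation) for 72 hours and then kept in fresh medium for 21 days. Whether the groups match in time in culture is unknown, so 5-AZA and culture time cannot be told apart. Rises and falls given below are differences between the 2 groups. The authors deposited FPKM, fragments scaled to transcript length and library size, which can be compared between genes. Totals of 92903364 to 93920706 reads per sample follow from the circRNA values if the smallest value of a sample is taken as 2 reads. FPKM keeps no read count, so the depth behind a single level is unknown.

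Values per gene were log2-transformed after adding 0.1 FPKM and fitted with limma over the 13199 genes with a mean of at least 0.1 FPKM. A gene counted as called when it differed by more than 2-fold at an adjusted p under 0.05, and on this scale the change of a gene with low values is understated. All 9 members passed the limit on low values. Over all genes tested, 13.1% were called higher and 1.32% lower. Of the 9 members, 3 were called higher (Cav1, Cav3 and Murc) and 0 lower with limma. An unadjusted p under 0.05 (limma) was reached by 5 in the upward and 1 in the downward direction. The share of all genes or transcripts under this unadjusted cut was not computed. Such counts, here and below, thus cannot be read against a background. The median log2 change was 0.28 over the members and 0.05 over all genes tested. With 2 samples against 2, an exact permutation test of a single gene cannot give a two-sided p below 0.333, so p-values are those of limma. The study calls the samples of a group biological repeats, and the labels do not say whether they came from separate cultures. The p-values therefore rest on the spread between these samples, which limma combines with the spread over all genes tested.

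The sequences shown are the start regions of the 3 genes called higher. They run from 250 bases before to 50 bases after a start in RefSeq on GRCm38.p6, on the plus strand, with each CG dinucleotide, the site at which DNA is methylated in mouse, in capitals. Windows were listed for 8 of the 9 members, all but Prkcdbp. On this build the genes lie at chr6:17306335-17341328 (Cav1), chr6:17281185-17289130 (Cav2), chr6:112459505-112472872 (Cav3), chr11:100956736-100970617 (Ptrf), chr1:51289126-51302960 (Sdpr), chr7:105480616-105482197 (Prkcdbp), chr4:48663514-48673492 (Murc), chr7:15946963-15967535 (Ehd2) and chr6:84008361-84211060 (Dysf). RefSeq lists 2 starts for Cav1, 1305 bases apart, and the table does not pair them with transcripts.
Cav1, first start (chr6:17306085-17306384): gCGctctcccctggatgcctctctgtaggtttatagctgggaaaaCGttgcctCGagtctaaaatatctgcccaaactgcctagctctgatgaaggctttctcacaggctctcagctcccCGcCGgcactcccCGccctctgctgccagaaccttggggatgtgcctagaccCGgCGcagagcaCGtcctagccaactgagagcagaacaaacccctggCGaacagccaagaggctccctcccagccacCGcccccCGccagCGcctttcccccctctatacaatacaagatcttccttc
Cav1, second start (chr6:17307390-17307689): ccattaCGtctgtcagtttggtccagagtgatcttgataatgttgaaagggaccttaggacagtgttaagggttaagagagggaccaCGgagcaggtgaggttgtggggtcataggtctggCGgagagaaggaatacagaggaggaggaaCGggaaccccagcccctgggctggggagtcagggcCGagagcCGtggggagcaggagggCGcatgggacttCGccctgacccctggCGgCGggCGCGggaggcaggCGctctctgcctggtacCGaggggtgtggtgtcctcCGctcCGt
Cav3 (chr6:112459255-112459554): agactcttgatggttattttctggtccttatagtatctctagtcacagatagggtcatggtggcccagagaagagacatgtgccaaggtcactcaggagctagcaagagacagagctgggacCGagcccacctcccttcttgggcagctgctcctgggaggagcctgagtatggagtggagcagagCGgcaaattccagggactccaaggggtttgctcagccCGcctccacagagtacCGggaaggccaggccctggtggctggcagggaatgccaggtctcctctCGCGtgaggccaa
Murc (chr4:48663264-48663563): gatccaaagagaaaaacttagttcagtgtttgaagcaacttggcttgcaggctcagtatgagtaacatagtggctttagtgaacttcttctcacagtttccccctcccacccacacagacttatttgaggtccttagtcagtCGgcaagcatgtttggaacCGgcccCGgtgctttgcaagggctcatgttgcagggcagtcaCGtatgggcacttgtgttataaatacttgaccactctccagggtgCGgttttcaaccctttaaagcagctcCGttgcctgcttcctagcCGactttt

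The first Cav1 window holds 13 CG and the second 16, whereas Cav3 holds 6 and Murc 7. Of the members not called, Cav2 holds 16, Ptrf 18 and 17, Ehd2 18, Dysf 13 and 14, and Sdpr 4. The median over 32851 windows of this length was 7, with quartiles of 3 and 20. CAGCTG, a sequence that the myogenic regulatory factors can bind, occurs 106 bases before the start of Cav3 and 204 bases before that of Ehd2, and in 16.3% of all windows. CTANNNNTAG, a wider pattern than the MEF2 consensus, whose core is of A and T alone, occurs 150 bases before the start of Sdpr and in 3.69% of all windows. The inner letters of the Sdpr match include a G, so it is outside that consensus. Both motifs read the same on either strand and do not overlap in these windows. DNA methylation and factor binding were not measured here, so a match is a description of the letters only.

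Among the caveolins, Cav1 rose, Cav3 was listed only in the treated cells, and Cav2 was lower by less than 2-fold, so that the most abundant caveolin mRNA was Cav2 in untreated and Cav1 in 5-AZA samples. Cav1 encodes the caveolin that drives formation of the pits outside striated muscle. It stood at 29.7 and 25.7 FPKM in untreated replicates 1 and 2 and at 70.0 and 73.0 FPKM in 5-AZA replicates 101 and 102. Both treated samples lay far above both untreated samples, and the replicates within a group were close. The mean went from 27.7 ± 2.82 to 71.5 ± 2.18 FPKM (SD, n = 2), a log2 change of 1.37 (standard error 0.11, 95% interval 1.12 to 1.62, adjusted p = 3.31e-05, limma). The log2 change was 1.40 without 5-AZA replicate 101 and 1.34 without replicate 102, and 1.47 and 1.27 without untreated replicates 1 and 2. The call was lost where 1 treated sample was left and kept where 1 untreated sample was left.

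Cav2, which encodes the partner that joins Cav1 in mixed oligomers, was measured at 75.4 and 64.4 FPKM in the untreated and 47.8 and 45.2 FPKM in the 5-AZA replicates. The groups did not overlap. The log2 change was -0.58 (95% interval -0.83 to -0.33, adjusted p = 0.00471, limma), which passed the p-value but stayed within 2-fold. Its adjusted p ranged from 0.00385 to 0.153 when each sample was left out in turn, and with all samples it was 0.0553 with eBayes without trend and 0.0748 without the limit on low values (limma). Cav1 and Cav2 are neighbours on chromosome 6 with 17205 bases between them on GRCm38.p6.

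Cav3 was listed at 0 in both untreated samples and at 4.30 and 6.89 FPKM in the 5-AZA replicates. No fold is given against a group listed at 0. The difference passed the test over genes (adjusted p = 4.89e-06, limma). In the alternative fits over genes with all samples the adjusted p was at most 0.0177 (limma). The fit over transcripts, given below, was less stable. The 5-AZA mean was 5.60 ± 1.83 FPKM (SD, n = 2), the smallest among the 3 caveolins in these samples.

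**Figure D1:**
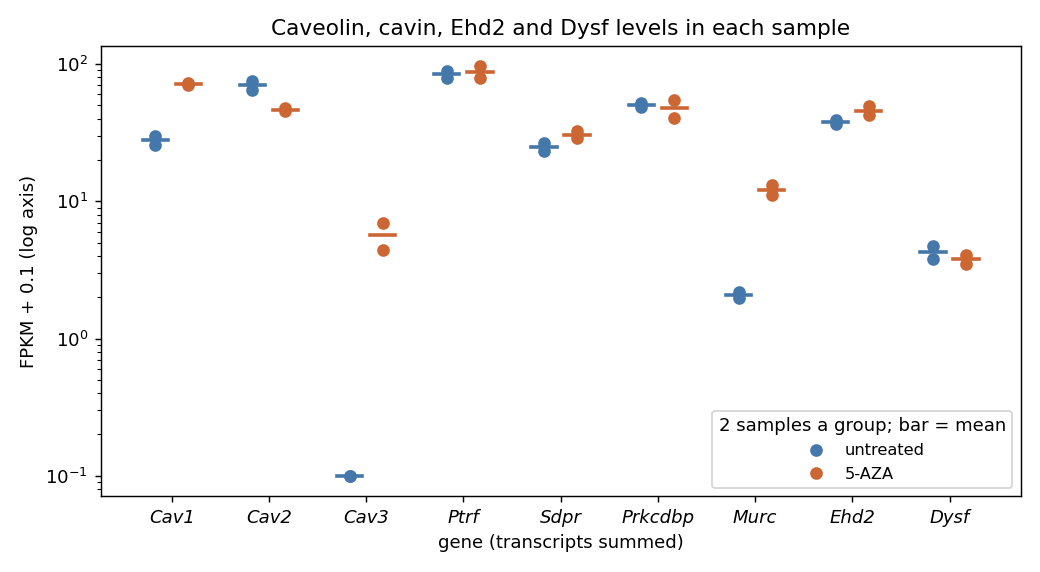
Level of each of the 9 genes in FPKM + 0.1 on a log axis, with 1 point for each of the 2 untreated and 2 5-AZA samples and a bar at the group mean. The groups stand clearly apart for Cav1, Cav3 and Murc, the 5-AZA points of Cav2 lie below its untreated points, and Ptrf, Prkcdbp and Dysf overlap.

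As a share of the summed caveolin FPKM, Cav1 held 28.2% and 28.5% in the untreated and 57.3% and 58.4% in the 5-AZA replicates. Cav2 held 71.8% and 71.5% and then 39.2% and 36.1%. Cav3 made up 3.52% and 5.51% in the treated samples. The ratio of Cav1 to Cav2 was 0.394 and 0.399 in the untreated and 1.46 and 1.62 in the 5-AZA samples, a difference many times the gap between replicates. The sum of the 3 caveolins went from 97.6 ± 10.5 to 124 ± 2.2 FPKM (SD, n = 2). The order of the 2 ubiquitous caveolins was thus exchanged, while their total moved much less than Cav1 alone.

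The rise of Cav1 lay mostly in 1 of its 5 RefSeq transcripts. NM_001243064.1, listed as transcript variant 2, stood at 3.37 and 3.69 FPKM in the untreated and 40.9 and 45.3 FPKM in the 5-AZA replicates. In a fit over the 35557 transcripts that passed the same limit, in which 2.1% were called higher and 0.262% lower, its log2 change was 3.57 (standard error 0.15, adjusted p = 0.00112, limma). NM_007616.4, transcript variant 1, was at 20.0 and 17.7 FPKM and then 23.6 and 20.8 FPKM. The groups of variant 1 did not overlap, and its log2 change of 0.24 had a 95% interval from -0.11 to 0.58 (adjusted p = 0.492, limma).

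Variant 2 made up 11.4% and 14.4% of the Cav1 sum in the untreated samples and 58.5% and 62.1% in the 5-AZA samples, while variant 1 went from 67.4% and 68.9% to 33.7% and 28.5%. The ratio of variant 2 to variant 1 was 0.169 and 0.209 without and 1.73 and 2.18 with 5-AZA. The 3 predicted transcripts of Cav1 held from 0.259 to 4.71 FPKM, and none of them was called. The authors' quantification divides reads among transcripts that share exons, so the split is an estimate. The call of variant 2 was lost without 5-AZA replicate 101 (adjusted p = 0.185, limma), without 5-AZA replicate 102 (adjusted p = 0.237, limma) and without the limit on low values (adjusted p = 0.119, limma), with log2 changes of 3.65, 3.50 and 3.57. Taking the most abundant transcript in place of the sum gave this transcript for Cav1, and with it a log2 change of 3.57 in place of 1.37.

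**Figure D2:**
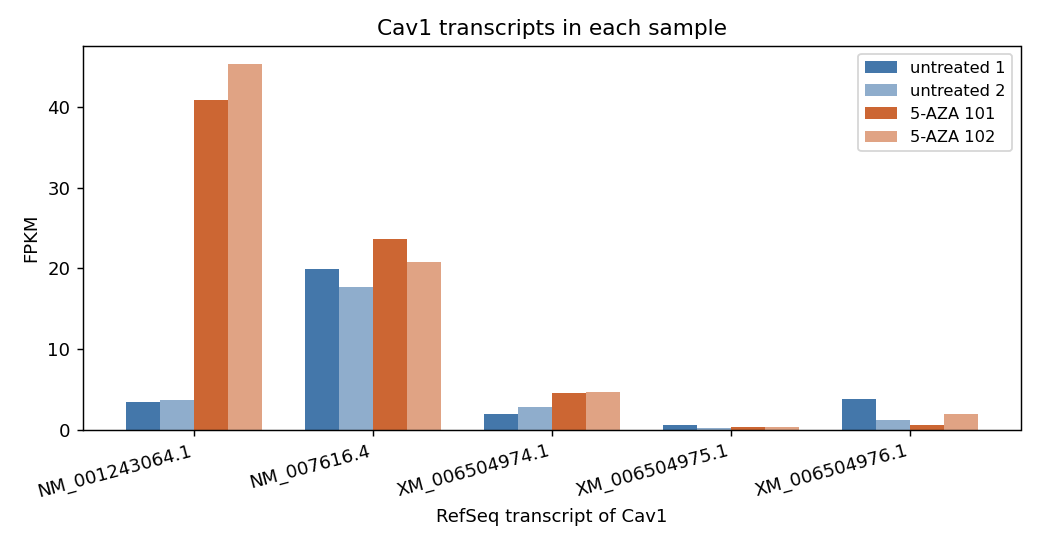
FPKM of the 5 RefSeq transcripts of Cav1, with 1 bar for each of the 4 samples. NM_001243064.1 was at or below 3.69 FPKM in both untreated samples and at 40.9 and 45.3 FPKM in the 5-AZA samples, whereas NM_007616.4 stayed between 17.7 and 23.6 FPKM.

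Among the other members, 4 genes have a single listed transcript (Cav3, Sdpr, Prkcdbp and Murc). For Cav2, NM_016900.4 held 92.7% to 97.0% of the gene in every sample, and for Ptrf NM_008986.2 held 98.1% to 99.1%. Ehd2 was divided between NM_153068.3, at 74.7% to 77.9%, and XM_011250582.2, at 22.1% to 25.3%. In these 3 genes the main transcript kept its place in every sample, unlike in Cav1. In all, 23 of the 41 transcripts passed the limit on low values, of which 3 were called higher (those of Cav3 and Murc and variant 2 of Cav1) and 0 lower with limma (unadjusted p under 0.05 in 4 and 1). Leaving out each sample in turn left from 0 to 1 of these calls. The single transcripts of Cav3 and Murc lost theirs each time, with adjusted p from 0.0652 to 0.237 and from 0.0749 to 0.237 (limma). Both also lost it without the limit on low values, where their adjusted p was 0.119 (limma), and Murc with eBayes without trend, where it was 0.0524 (limma).

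Of the cavins, Murc rose, and the 3 found in most cell types were not called. Ptrf, which binds caveolins to build the coat, was the most abundant member in both groups, at 89.1 and 79.6 FPKM in the untreated and 78.5 and 95.9 FPKM in the 5-AZA replicates. The groups overlapped, and the log2 change of 0.04 had a 95% interval from -0.23 to 0.32 (adjusted p = 0.842, limma). A lncRNA of the NONCODE collection, NONMMUT012038.2, lies within the Ptrf gene on the same strand, so that reads could be divided between them, and it was listed at 49.7, 67.6, 63.0 and 55.6 FPKM in the same order of samples.

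Prkcdbp, which joins cavin 1 at caveolae, was measured at 52.2 and 48.7 FPKM and then 40.3 and 54.9 FPKM. These groups overlapped too, with a log2 change of -0.10 (95% interval -0.43 to 0.23, adjusted p = 0.676, limma). Sdpr, which encodes the cavin that bends membrane, was measured at 26.5 and 23.1 FPKM and then 28.9 and 32.1 FPKM. The treated samples of Sdpr lay just above the untreated ones, but the log2 change of 0.30 (95% interval 0.03 to 0.56) did not pass the adjustment (adjusted p = 0.102, limma).

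Murc, the muscle cavin, stood at 1.88 and 2.08 FPKM in the untreated and 10.9 and 13.1 FPKM in the 5-AZA replicates. The groups were well separated. The mean rose from 1.98 ± 0.14 to 12.0 ± 1.56 FPKM (SD, n = 2), 6.07-fold on the deposited values and a log2 change of 2.54 (standard error 0.17, adjusted p = 1.23e-05, limma). In the alternative fits over genes with all samples its adjusted p was at most 0.0177 (limma). With samples left out in turn its log2 change was 2.41 to 2.67. Its call in the fit over transcripts was less stable, as given above. Unlike Cav3, Murc was thus listed above 1 FPKM in the untreated samples.

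Murc made up 1.11% and 1.36% of the summed cavin FPKM in the untreated and 6.89% and 6.70% in the 5-AZA samples. Ptrf held 52.5% and 51.8% and then 49.5% and 48.9%, Sdpr 15.6% and 15.1% and then 18.2% and 16.4%, and Prkcdbp 30.8% and 31.7% and then 25.4% and 28.0%. The sum of the 4 cavins was 162 ± 11.5 FPKM untreated and 177 ± 26.5 FPKM after 5-AZA (SD, n = 2). The order of the cavins was the same in all 4 samples.

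**Figure D3:**
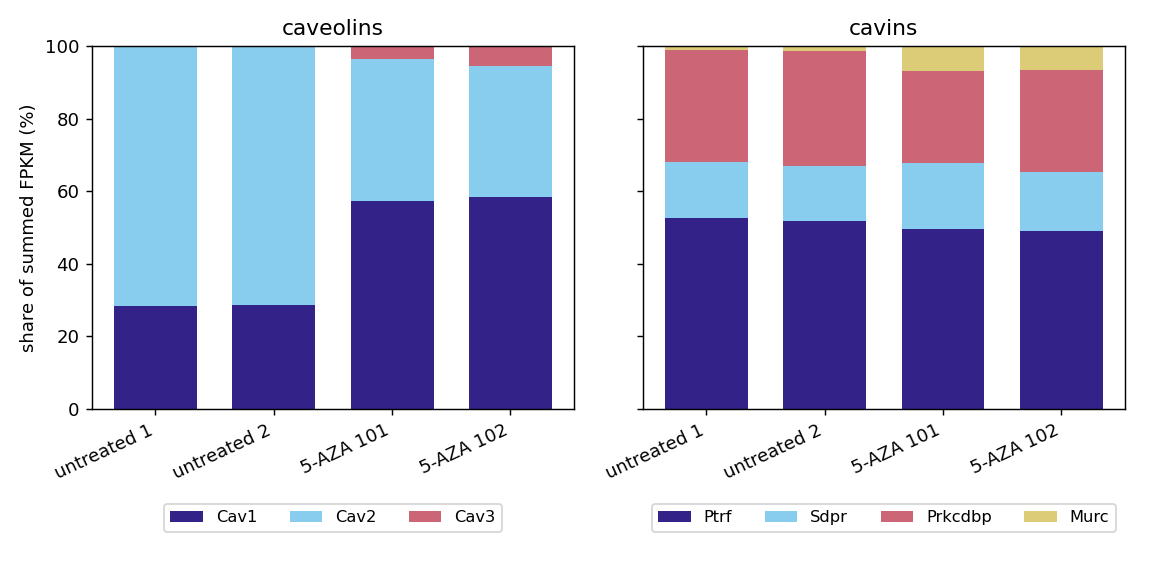
Share of each caveolin (left) and each cavin (right) in the summed FPKM of its family, in percent, with 1 stacked bar per sample. Cav1 goes from 28.2% and 28.5% to 57.3% and 58.4% of the caveolins, while Ptrf holds between 48.9% and 52.5% of the cavins throughout.

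Ehd2 was measured at 38.8 and 36.4 FPKM in the untreated and 42.3 and 49.1 FPKM in the 5-AZA replicates. The treated samples lay above the untreated ones, with a log2 change of 0.28 (95% interval 0.03 to 0.53) that did not pass the adjustment (adjusted p = 0.108, limma). Dysf, for which 26 transcripts are listed, summed to 4.60 and 3.72 FPKM and then 3.42 and 3.95 FPKM. The groups of Dysf overlapped, and its log2 change was -0.17 (95% interval -0.59 to 0.26, adjusted p = 0.578, limma). Only 8 of the 26 Dysf transcripts passed the limit on low values, and 0 were called. XM_006506173.3 held the largest share in each sample, from 28.5% to 43.9%. XM_006506172.2 was listed at almost 0 in untreated replicate 1 and at 0.481 FPKM in untreated replicate 2, so the split among Dysf transcripts differed between samples of 1 group.

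**Figure D4:**
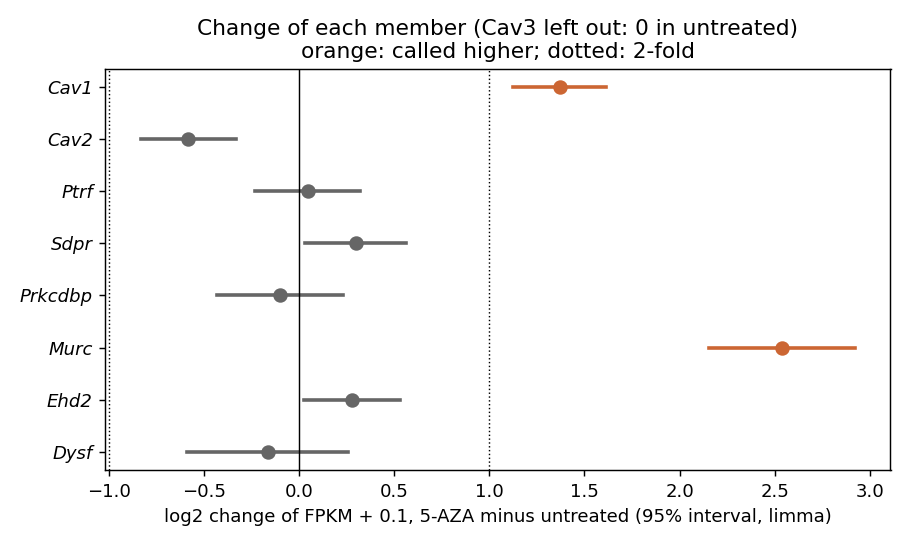
Log2 change of FPKM + 0.1 from untreated to 5-AZA for 8 of the 9 genes, with points for the limma estimate, lines for the 95% interval and dotted lines at 2-fold. Cav1 at 1.37 and Murc at 2.54 lie beyond 2-fold, Cav2 at -0.58 lies below 0, and the other 5 lie between -0.17 and 0.30. Cav3 is left out because both untreated samples were listed at 0.

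By level in the untreated samples, the order was Ptrf, Cav2, Prkcdbp, Ehd2, Cav1, Sdpr, Dysf, Murc and Cav3. Cav1 and Sdpr overlapped in this order and the other neighbours did not. In the 5-AZA samples the order was Ptrf, Cav1, Prkcdbp, Cav2, Ehd2, Sdpr, Murc, Cav3 and Dysf. There the ranges of Prkcdbp, Cav2 and Ehd2 overlapped one another. Cav1 moved from the fifth to the second place and Cav2 from the second to the fourth. Dysf, the other gene known from muscle, was the lowest member after 5-AZA.

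In 5 of the 9 members both 5-AZA samples lay above both untreated samples, in 1 they lay below and in 3 the groups overlapped. Over all genes tested these patterns were found in 36.8% (above) and 25.4% (below).

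Muscle and fat markers moved with these changes. All 8 of 8 skeletal muscle markers (Acta1, Ckm, Mylpf, Myog, Tnnt3, Tnni2, Myh3 and Ttn) were higher in both 5-AZA samples, and their summed level was 1.12 to 1.29 FPKM untreated and 801 to 1222 FPKM after 5-AZA. Of 8 adipocyte markers, 7 were higher in both, with a sum of 30.3 to 46.2 and then 1135 to 1560 FPKM, and Lep stayed below 0.1 FPKM in every sample. Of 8 endothelial markers, 5 were higher and 1 lower, with sums of 0.557 to 0.931 and then 4.53 to 5.34 FPKM, and Kdr and Tie1 were listed at 0 throughout. Of 7 smooth muscle markers, 6 were higher and Smtn overlapped, with sums of 196 to 200.3 and then 218 to 301 FPKM. Acta2 made up most of these sums, at 185 and 191 FPKM and then 196 and 273 FPKM. Myocd, counted among the 6, stayed below 0.1 FPKM in every sample.

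Of 8 cardiac markers, 2 were higher, with sums of 0.321 to 0.370 and then 1.62 to 3.51 FPKM. The higher ones were Tnni3, at 0.321 and 0.273 FPKM and then 1.27 and 3.12 FPKM, and Myh6. Myh6 was listed at almost 0 and 0 FPKM and then at 0.309 and 0.385 FPKM. Nppa, Nppb, Myl7, Tbx5 and Hand2 were listed at 0 and Nkx2-5 stayed below 0.1 FPKM. Of 6 immune markers, 3 were higher, with sums of 1.17 to 1.5 and then 2.47 to 3.75 FPKM, of which only Cd68 reached 0.1 FPKM. Adgre1 and Cd3e were listed at 0, and Ptprc, Csf1r and Itgam stayed below 0.1 FPKM. Of 8 mesenchymal markers, 5 were higher and 3 lower, with sums of 3735 to 3808 and then 2919 to 3243 FPKM. Such markers were thus present in every sample. Vim, the largest part, went from 2268 and 2406 to 1178 and 1380 FPKM, and Thy1 from 0.578 and 0.785 to 10.4 and 14.2 FPKM. The part of these cell types in the levels of the caveolins and cavins was not tested. In bulk RNA, fewer cells of a type and less RNA per cell cannot be told apart.

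The pattern most like that of Cav1 over the 4 samples, by Euclidean distance of centred log2 values among 10799 genes with a mean of at least 1 FPKM, was that of Egfr (distance 0.0411), followed by Gda (0.0469) and Tnfaip3 (0.0724). Nearest to Cav3 were Lmod3 (0.0858), Tnnt1 (0.133) and Rhox2a (0.200). Lmod3, which encodes a protein of the muscle thin filament, was likewise listed at 0 in both untreated samples and at 4.18 and 6.40 FPKM in the 5-AZA replicates. Such likeness over 4 samples is a description.

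Of 10 genes for proteins that bend, tether or neighbour caveolae, 9 were tested and 0 were called in either direction with limma (unadjusted p under 0.05 in 1 upward and 2 downward), with a median log2 change of 0.00. Ehd1, an Ehd2 relative that acts in endocytic recycling, was at 13.5 and 13.3 FPKM and then 17.5 and 19.9 FPKM, a log2 change of 0.48 (adjusted p = 0.0189, limma). Pacsin2, which shapes the caveola neck, was at 43.6 and 43.9 FPKM and then 33.0 and 35.6 FPKM, a log2 change of -0.35 (adjusted p = 0.0324, limma). Both passed the p-value and stayed within 2-fold. Pacsin1 was not tested, with 0 FPKM in the untreated and 0.164 and 0.169 FPKM in the 5-AZA samples.

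Of 17 genes for ferlins and for partners of dysferlin in membrane repair, 12 were tested, 2 were called higher and 0 lower with limma (unadjusted p under 0.05 in 4 and 2), with a median log2 change of -0.07. Trim72, a muscle protein that gathers vesicles at membrane wounds, rose from 0.0557 and 0.0374 FPKM to 4.13 and 7.65 FPKM, a log2 change of 5.29 (adjusted p = 9.69e-06, limma). Capn3, a muscle calpain, rose from 0.0110 and 0 FPKM to 0.438 and 0.650 FPKM (adjusted p = 0.00132, limma).

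Bin1, which shapes the T tubules of muscle, was just inside 2-fold, at 32.8 and 29.7 FPKM and then 53.9 and 69.6 FPKM (log2 change 0.97, adjusted p = 9.11e-04, limma). Anxa5 went the other way within 2-fold, at 344 and 349 FPKM and then 237 and 278 FPKM (log2 change -0.43, adjusted p = 0.0195, limma). Myof, the ferlin closest to dysferlin, was at 42.5 and 37.9 FPKM and then 32.1 and 33.9 FPKM (adjusted p = 0.0895, limma). Otof, Fer1l4 and Syt7 were listed at 0 in all samples, and Fer1l5 and Fer1l6 stayed below 0.1 FPKM. Dysf and Myof thus gave no call beside the rises of Trim72 and Capn3.

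Of 13 genes for signalling proteins found in caveolae or bound by caveolins, 11 were tested, 2 were called higher and 0 lower with limma (unadjusted p under 0.05 in 5 and 2), with a median log2 change of 0.21. Egfr, the epidermal growth factor receptor, rose from 7.18 and 6.06 FPKM to 16.8 and 17.1 FPKM, a log2 change of 1.35 (adjusted p = 1.33e-04, limma). Nos3, the endothelial nitric oxide synthase that caveolin 1 holds inactive, rose from 0 and 0.0296 FPKM to 0.342 and 0.324 FPKM (adjusted p = 0.00703, limma). Neither was called without 5-AZA replicate 101 or without 5-AZA replicate 102. Other genes of this list passed the p-value (adjusted p under 0.05, limma) and stayed within 2-fold. Upward these were Tgfbr2 (log2 change 0.71), Fyn (0.65) and Tgfbr1 (0.55). Downward they were Prkca (-0.69) and Gnai2 (-0.40). Nos2 was listed at 0 and Nos1 stayed below 0.1 FPKM. Over the 3 lists, 0 of 9, 2 of 12 and 2 of 11 tested genes were called higher, beside 13.1% of all genes. The 2 lists with calls lie near that share, and no difference from it was tested. In each list 0 were called lower, beside 1.32% of all genes.

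**Figure D5:**
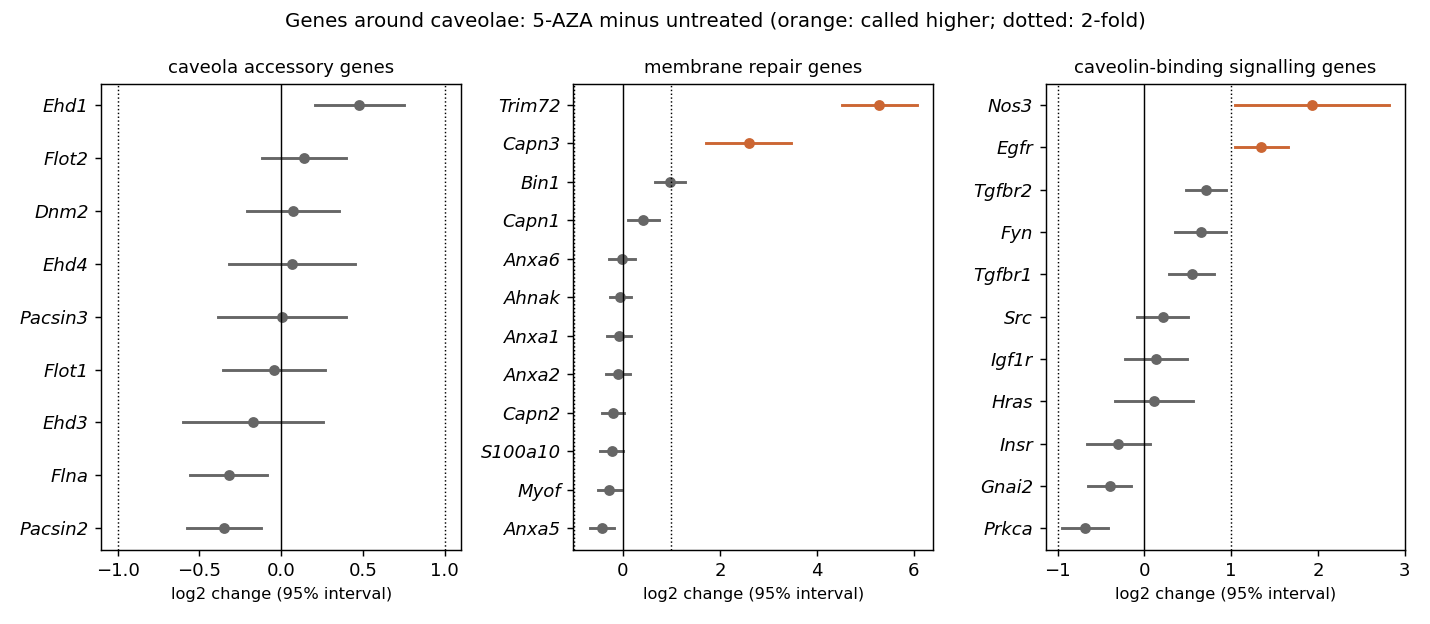
Log2 change of FPKM + 0.1 from untreated to 5-AZA for the tested genes of the 3 lists, with points for the limma estimate, lines for the 95% interval, orange for genes called higher and dotted lines at 2-fold. Trim72 and Capn3 stand beyond 2-fold among the membrane repair genes, Nos3 and Egfr among the signalling genes, and no caveola accessory gene does.

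No circRNA among the 4295 listed names a member as its host gene.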

How the data were processed

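Stranded libraries were made from total RNA of 2 untreated and 2 5-AZA samples of C3H10T1/2 after removal of rRNA. The submitters' processing notes name Trimmomatic, HISAT2, Bowtie2 2.2.9, eXpress 1.5.1 and the build mm9, with no roles. The authors deposited FPKM values per mRNA and lncRNA transcript and RPM values per circRNA. The transcript positions listed with the circRNAs lie in the GRCm38 spans of 1888 of 2131 host genes, so coordinates are given on GRCm38. RPM values were whole multiples (within 0.01 reads) of a step per sample, taking the smallest as 2 reads.

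limma 3.58.1 (lmFit, eBayes with trend) in R 4.3.3 was run over all genes or all transcripts, with Benjamini-Hochberg adjustment, and was tested on simulated data. The study's methods name a count model and an adjusted p below 0.05, and its results add a log fold change over 1, with no base given, read here as log2. FPKM values are not counts, so the thresholds were kept and that model was not used. Pathway genes named are those called, up to 6 per list, those untested, and some chosen after their values were seen. The latter are Ehd1, Pacsin2, Bin1, Anxa5, Myof, Tgfbr2, Fyn, Tgfbr1, Prkca and Gnai2. All members are given. The members and lists were chosen with earlier results of these data known. One further immune marker, outside the 6 counted, is not reported here. Cavins carry their older symbols in the files. Start regions came from RefSeq.

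Other pseudocounts, limits, scalings, eBayes without trend, no fold threshold, the most abundant transcript and leaving out each sample were tried. The alternatives for single transcripts were added after seeing the data.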

Additional observations from a re-analysis of the deposited data

Results flagged for a closer look

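Among 19 lncRNAs that overlap a member gene or lie within 2000 bases of it, 6 had a mean of at least 0.1 FPKM, and 2 of these were higher in both 5-AZA samples than in both untreated samples by more than 2-fold. They are singled out because the comparisons of the report do not use the lncRNA values, and neither was tested. The share of all lncRNAs that meet this rule was not computed, so these 2 cannot be read against a background. NONMMUT000846.2 lies on the minus strand of chromosome 1 from 51218385 to 51333779 and spans Sdpr, which is on the plus strand. It was listed at 0.00631 and 0.0126 FPKM in the untreated and 0.506 and 0.935 FPKM in the 5-AZA replicates, a mean of 0.721 FPKM after treatment. Whether the quantification used the strand of the reads is not given in the sources used here. NONMMUT047217.2, a single exon on the plus strand of chromosome 4 from 48675155 to 48675520, begins beyond the end of Murc at 48673492. It was listed at almost 0 in both untreated samples and at 2.79 and 0.658 FPKM in the 5-AZA replicates, a mean of 1.72 FPKM.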

How the results depend on the processing

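In the fits over genes, Cav3 and Murc were called higher under each alternative run. Cav1 was so too except without 5-AZA replicate 101 or 102, and leaving out samples gave 2 to 3 member genes called higher. Of 122 counts recomputed, 103 stayed within 1.5 times. Most of these 103 were counts of 0 that stayed at 0, and a drop from 3 to 2 calls was also within 1.5 times. The direction of Ptrf turned to a log2 change of -0.064 after centring on the sample medians, to -8.77e-04 after quantile normalization, and to -0.038 and -0.10 without untreated replicate 2 and 5-AZA replicate 102, in a range of -0.10 to 0.19 when samples were left out. That of Prkcdbp turned to 0.12 without 5-AZA replicate 101, in a range of -0.32 to 0.12. Without the limit on low values, 0 member transcripts and 1 caveola accessory gene were called higher. Leaving out samples gave 0 to 1 member transcripts, 2 to 3 membrane repair genes and 0 to 2 signalling genes called higher. With a pseudocount of 1 FPKM, or a mean of at least 1 FPKM, 1 membrane repair gene and 1 signalling gene were called higher, and after quantile normalization 1 signalling gene. With the adjusted p alone, 1 caveola accessory gene and 5 signalling genes were higher, while 1 member (Cav2), 1 caveola accessory gene, 1 membrane repair gene and 2 signalling genes were lower. The causes were not tested.

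Quantile normalization moved the median log2 change of all genes from 0.05 to -0.12 and the calls from 1724 higher and 174 lower to 1041 and 886. The calls were 875 higher and 86 lower with a pseudocount of 1 FPKM, and 845 and 122 with a mean of at least 1 FPKM. They were 1179 and 83 without the limit on low values and 2449 and 783 with the adjusted p alone. Leaving out a sample gave 733 to 1617 higher and 52 to 184 lower. No paired analysis was possible because the groups share no replicate number. Depth per level is unknown, and there are few samples.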
